A study of Mus musculus with 49 samples.

Results

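Stathmin, neurofilament and 14-3-3 genes were followed in the 2 classes of medium spiny neuron (MSN) of the mouse nucleus accumbens (NAc), those with the D1 and those with the D2 dopamine receptor. The set holds 10 of the 52636 genes in the count table. Stmn1, Nefl, Ywhah and Lrpap1 were chosen by their counts, which an earlier analysis had higher in D1-MSNs by all 3 isolation methods. To these, 6 relatives of the same families were added by name (Stmn2, Stmn3, Stmn4, Nefm, Nefh and Ywhag). The male differences between D1- and D2-MSNs are therefore taken to have chosen the genes, since all whole cell and nuclear libraries are male. They are given below as descriptions without p-values, and nothing is read from how many members passed the thresholds there. The female libraries, the differences between methods and the shares within families were not used in the choice.

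The libraries were made by whole cell-FACS, nuclear-FACS or RiboTag affinity purification from untreated mice on a C57BL/6J background. Per the study each sample came from a different animal, whose age is not given in the sources used here. In nuclear-FACS, nuclei were sorted by GFP from the line Thy1-loxPSTOPloxP-EGFP-F crossed to Drd1-cre (6 libraries) or Drd2-cre (5), all male, so the label depends on Cre and on the Thy1 promoter. In whole cell-FACS, male cells were sorted by a fluorophore in the cytoplasm driven by the Drd1 (8 libraries) or Drd2 (6) promoter, in lines not named further. In RiboTag, tagged ribosomes were pulled down from Drd1-cre x Rpl22-loxPexon4loxP-exon4-HA mice (6 male, 5 female) and Drd2-cre x Rpl22-loxPexon4loxP-exon4-HA mice (6 male, 5 female), and any cell in which the Cre line is active contributes. Libraries are named by the number that their column carries.

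Stathmins bind tubulin dimers and promote the disassembly of microtubules, and phosphorylation releases this hold. Stmn1 encodes the soluble founder of the family, while the products of Stmn2, Stmn3 and Stmn4 are anchored to membranes of the Golgi and growth cone by a lipid-modified extension. Neurofilaments of light, medium and heavy chains (Nefl, Nefm and Nefh) assemble into the intermediate filaments that set the calibre of axons. The 14-3-3 proteins eta (Ywhah) and gamma (Ywhag) are dimeric adaptors that bind phosphorylated partners. Lrpap1 encodes RAP, a chaperone of the endoplasmic reticulum that keeps receptors of the low density lipoprotein receptor family from binding ligands too early.

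All 10 genes had a count in each of the 47 libraries, the lowest being 13 for Nefh and 31 for Nefl. In the annotation GENCODE vM21 of the build GRCm38, Stmn1 lies on the plus strand at chr4:134468320-134473843. Nefl (plus strand, chr14:68083863-68089095) lies wholly inside the annotated span of Nefm (minus strand, chr14:68082590-68124846). Because the counting ignored strand, took introns and exons alike and credited a fragment to each gene it overlapped, Nefl fragments also entered the count of Nefm. The Nefl count was at a median 49.8% of the Nefm count (18.7 to 78.6% over 47 libraries). Log2 fold changes of Nefm between D1 and D2 are therefore given with and without it. Levels of Nefm, and its differences between methods and between sexes, include the Nefl count. Ywhah lies on the plus strand at chr5:33018816-33027966, Ywhag on the minus strand at chr5:135908409-135934616 and Lrpap1 on the minus strand at chr5:35091501-35105766. Levels are given as FPKM, fragments per kilobase of gene span and per unit of scaled library size, because the counts cover introns. For long genes such as Stmn2 (52.247 kb of span, 5.602 kb of exons) this unit is low by construction.

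Promoter sequences were at hand for 4 of the 10 genes in the RefSeq promoter table (GRCm38.p6, from 250 bases before to 50 bases after the start). They are shown because no others were at hand. Ywhah and Lrpap1 passed the female test below, and Ywhag and Stmn3 did not. Capitals mark matches to TGACGT, the core of the cAMP response element, and to GGGCGG, the core of the GC box, on either strand.
Ywhah (chr5:33018566-33018865, plus strand): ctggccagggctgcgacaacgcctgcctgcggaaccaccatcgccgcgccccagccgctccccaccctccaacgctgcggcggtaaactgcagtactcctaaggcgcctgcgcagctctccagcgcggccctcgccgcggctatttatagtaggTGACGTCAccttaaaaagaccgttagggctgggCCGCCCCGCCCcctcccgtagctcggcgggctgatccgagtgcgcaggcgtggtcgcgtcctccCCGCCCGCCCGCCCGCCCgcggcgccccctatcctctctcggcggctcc
Ywhag (chr5:135934592-135934891, minus strand): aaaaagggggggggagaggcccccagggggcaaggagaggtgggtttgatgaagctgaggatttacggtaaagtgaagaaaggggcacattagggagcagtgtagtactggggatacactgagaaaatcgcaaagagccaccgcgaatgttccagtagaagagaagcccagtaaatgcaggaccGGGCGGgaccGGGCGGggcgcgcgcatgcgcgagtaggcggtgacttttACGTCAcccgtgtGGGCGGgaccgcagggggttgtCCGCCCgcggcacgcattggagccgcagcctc
Lrpap1 (chr5:35105650-35105949, minus strand): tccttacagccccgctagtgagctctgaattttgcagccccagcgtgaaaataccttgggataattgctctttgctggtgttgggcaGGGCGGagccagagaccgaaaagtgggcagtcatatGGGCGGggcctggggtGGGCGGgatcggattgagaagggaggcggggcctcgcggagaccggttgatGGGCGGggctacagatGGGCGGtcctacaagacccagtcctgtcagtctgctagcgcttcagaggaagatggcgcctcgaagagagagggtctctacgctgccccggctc
Stmn3 (chr2:181314451-181314750, minus strand): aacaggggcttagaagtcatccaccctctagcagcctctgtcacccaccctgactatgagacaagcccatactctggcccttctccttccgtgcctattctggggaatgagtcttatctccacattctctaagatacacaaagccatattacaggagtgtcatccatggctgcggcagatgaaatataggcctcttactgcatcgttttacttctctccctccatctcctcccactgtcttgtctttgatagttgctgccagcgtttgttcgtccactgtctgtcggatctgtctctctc
The full palindrome TGACGTCA stood in the Ywhah promoter with its first base at position -96 from the start, and 1.79% of the 32851 promoters in the table held it. TGACGT, which lies within that palindrome on both strands, was found in 7.51% of promoters, and Ywhag held it on the reverse strand at -17. GGGCGG or its reverse complement occurred 6 times in Ywhah, 5 times in Lrpap1, 4 times in Ywhag and not in this window of Stmn3, and 35.7% of promoters held it.

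Whole cell libraries held 10476223 to 27965357 counts, nuclear libraries 3701255 to 68777008 and RiboTag libraries 24076888 to 45641342. The 10 highest genes held 84.9 to 88.3% of counts in RiboTag libraries, and between 60.9 and 66.9% in nuclear D1 numbers 1, 5 and 6 against 20.3 to 32.5% in the other 3 nuclear D1 libraries and 5.23 to 13.9% in nuclear D2. In whole cell libraries they held 54.5 and 38.3% in D2 numbers 2 and 6, 3.15 to 20.2% in the other 4 D2 libraries and 2.70 to 7.95% in D1. The counts per kilobase over 1400 olfactory and vomeronasal receptor genes, taken as not expressed and spread evenly over all gene spans, gave an estimated background of 8.29 to 52.5% of counts in whole cell, 0.585 to 22.1% in nuclear D1 and 32.4 to 52.2% in nuclear D2 libraries, and 0.0258 to 0.0633% in RiboTag libraries. Of the 5 D1-MSN markers (Drd1, Pdyn, Tac1, Isl1 and Chrm4), 4 were called higher in D1 and all 5 D2-MSN markers (Drd2, Adora2a, Penk, Gpr6 and Sp9) higher in D2 in the female RiboTag libraries, and whole cell libraries had 5 and 5. In nuclear libraries 1 of 4 D1-MSN markers tested was called higher in D1 (Drd1, log2 fold change 1.75). Of 4 D2-MSN markers tested, Drd2 was called lower in D1 (-1.74) and Penk higher (2.42), against its label, with a median of 0.58. The summed D1-MSN markers of nuclear D1 (35.4 to 57.0 CPM) and D2 (28.4 to 42.3 CPM) overlapped, and the summed D2-MSN markers of nuclear D1 (209 to 579 CPM) and D2 (306 to 609 CPM) overlapped.

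The comparison of D1- with D2-MSNs in female RiboTag libraries asked whether the male differences were also present in females, whose part in the choice is not known. Stmn1, Stmn2, Ywhah and Lrpap1 were higher in female D1-MSNs, and Nefh was lower. In 1.18% of the 7057 genes tested a gene was called higher in D1, and in 0.723% higher in D2. A call needed an adjusted p of at most 0.05 by edgeR's quasi-likelihood test, a log2 fold change beyond 0.38 either way and a mean level past the 25th percentile. The median log2 fold change was 0.24 over the 10 members and 2e-04 over all genes tested. Because each library is a bulk sample, more cells of a type and more RNA per cell cannot be told apart.

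Stmn1 stood at 3.41, 3.26, 4.99, 2.67 and 2.68 FPKM in the 5 female D1 libraries (numbers 1, 2, 4, 5 and 6). In female D2 libraries it stood at 1.28, 2.07, 1.65, 1.24 and 2.49 FPKM (numbers 1, 2, 3, 5 and 6). Every D1 library was above every D2 library, as for 2.59% of the genes tested, although the lowest D1 value, in number 5, exceeded D2 number 6 only slightly. The log2 fold change was 0.97 (SE 0.17, n = 5 and 5, 1.96-fold, edgeR adjusted p = 0.00126), and it ranged from 0.79 to 1.13 when each library was left out in turn.

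Stmn2, whose product marks growing axons and is called SCG10, was at 0.173, 0.177, 0.226, 0.157 and 0.174 FPKM in female D1. The D2 libraries had 0.0528, 0.1345, 0.0775, 0.0655 and 0.117 FPKM. The groups did not overlap, and D2 numbers 2 and 6 were again the nearest to D1. The log2 fold change was 1.04 (SE 0.17, edgeR adjusted p = 0.000601). Stmn3 and Stmn4 had log2 fold changes of 0.07 (SE 0.08) and 0.06 (SE 0.07), with adjusted p of 0.771 and 0.766 by edgeR, and their groups overlapped.

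Ywhah had the smallest fold change of the 4 genes higher in D1 and the narrowest spread. It stood at 7.18, 6.20, 7.79, 6.76 and 6.76 FPKM in female D1 and at 4.80, 5.25, 5.48, 5.10 and 5.77 FPKM in D2, with no overlap. The log2 fold change was 0.39 (SE 0.06, edgeR adjusted p = 0.000305). It lay just over the fold threshold, and without D1 number 4 (0.35, edgeR adjusted p = 0.00051) or D2 number 1 (0.36, edgeR adjusted p = 0.00147) the difference kept its p but fell under that threshold. Ywhag had a log2 fold change of 0.16 (SE 0.06, edgeR adjusted p = 0.147), with D1 values of 2.81 to 3.41 FPKM and D2 values of 2.54 to 2.95 FPKM. Among the other 14-3-3 genes, Ywhab, Ywhae, Ywhaq and Ywhaz were tested and 0 of 4 was called, with log2 fold changes from -0.07 to 0.10, while Sfn did not pass the filter.

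Lrpap1 stood at 2.10, 2.32, 2.08, 2.74 and 2.22 FPKM in female D1. In D2 it stood at 1.39, 1.94, 1.63, 1.47 and 1.57 FPKM. The lowest D1 library was above the highest D2 library, number 2. The log2 fold change was 0.52 (SE 0.08, edgeR adjusted p = 0.000353). Of the 15 receptors listed beside it, 9 were tested and 0 were called. The list held genes of the low density lipoprotein receptor family and Sort1, which is not of that family. Sorl1, a sorting receptor of that family, had an adjusted p of 0.0161 by edgeR with a log2 fold change of -0.23, under the fold threshold.

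Neurofilament genes did not follow the same pattern in females. Nefl was at 11.0, 9.22, 9.07, 12.8 and 10.7 FPKM in D1 and at 6.85, 10.2, 8.00, 6.63 and 10.8 FPKM in D2. D2 numbers 2 and 6 reached D1 values, and the log2 fold change of 0.32 (SE 0.12, edgeR adjusted p = 0.149) did not pass. Without D2 number 6 it did (0.42, edgeR adjusted p = 0.0316). Nefm had a log2 fold change of 0.05 (SE 0.18, edgeR adjusted p = 0.928), or -0.16 (SE 0.24) once the Nefl count was taken off.

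Nefh was at 0.800, 0.817, 0.840, 0.862 and 0.996 FPKM in female D1 and at 0.889, 1.76, 1.14, 0.915 and 1.61 FPKM in D2. The groups overlapped, and D2 numbers 2 and 6 were the highest. Its log2 fold change was -0.54 (SE 0.15, edgeR adjusted p = 0.0449). This call was lost when D1 number 1 (edgeR adjusted p = 0.0992), 2 (0.109), 4 (0.0646) or 5 (0.0876) or D2 number 2 (0.105), 3 (0.0606) or 6 (0.131) was left out. Of the other intermediate filament genes, Ina and Synm were tested and 0 of 2 was called. Synm, which encodes synemin, was 1.24 higher in D1 (SE 0.13, edgeR adjusted p = 1.84e-06) but its mean level lay under the 25th percentile.

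**Figure D1:**
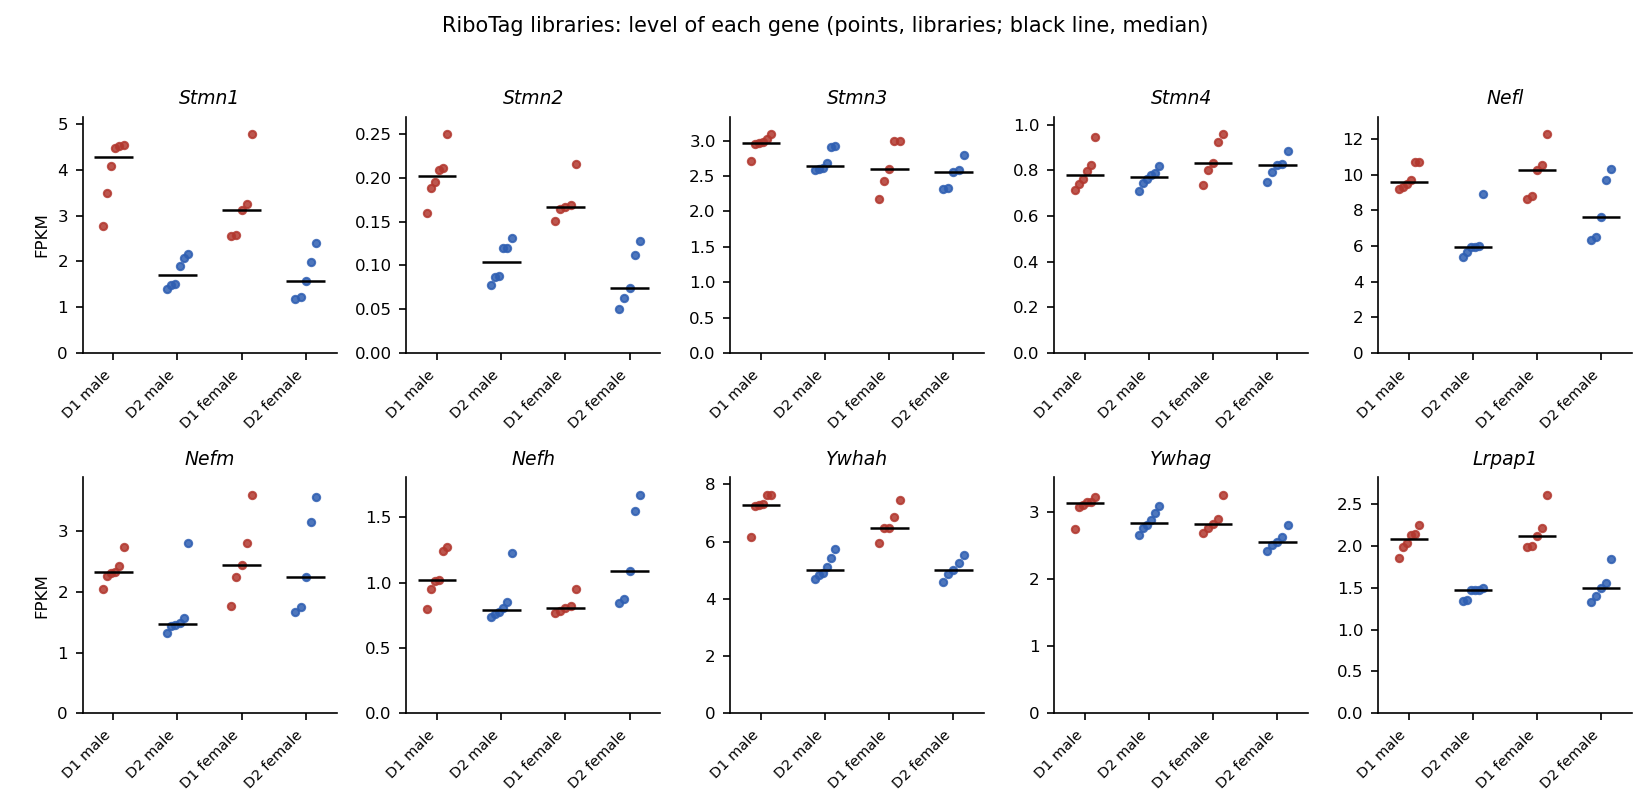
Level of each gene in FPKM (y axis) in RiboTag libraries of D1- (red) and D2-MSNs (blue) of male and female mice, on 1 scaling over the 22 libraries, with 1 point for each library and a black line at the median. Stmn1, Stmn2, Ywhah and Lrpap1 separate D1 from D2 in both sexes, while D1 and D2 libraries overlap for Nefm and Nefh in both sexes and for Nefl in females.

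Of the remaining lists, 0 of 20 microtubule-associated and growth cone genes and 0 of 10 axon transport motors were called in the female comparison. Map1b, which binds microtubules in growing axons, had an adjusted p of 0.00358 by edgeR at a log2 fold change of 0.28, and Kif1a, the motor of synaptic vesicle precursors, one of 0.0351 at 0.17, both under the fold threshold. The median log2 fold change was 0.10 for the microtubule-associated and growth cone genes and 0.08 for the motors, beside 2e-04 over all genes tested.

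Markers of other neurons moved with the cell type in RiboTag libraries. The summed level of 3 glutamatergic neuron markers (Slc17a7, Slc17a6 and Tbr1) was 13.3 to 33.0 CPM in female D1 against 1.80 to 7.59 CPM in female D2, and 17.4 to 39.96 CPM against 1.27 to 9.91 CPM in males, with none of the 3 at 0 in a female library. Slc17a7, the vesicular glutamate transporter of cortical neurons, was called higher in female D1 (log2 fold change 2.43, SE 0.38, edgeR adjusted p = 0.000286), and so were Sst (1.31, edgeR adjusted p = 0.00248) and Npy (0.99, edgeR adjusted p = 0.0388), peptides of GABA interneurons. Female D1 number 4, with the highest glutamatergic sum of the female libraries, also had the highest Stmn1, Stmn2, Ywhah and Ywhag of these libraries. Among the female D1 libraries it had the lowest Nefl (9.07 FPKM) and the lowest Lrpap1 (2.08 FPKM). The other 4 female D1 libraries, at 13.3 to 15.3 CPM of these markers, had Stmn1 between 2.67 and 3.41 FPKM. Without number 4 the log2 fold change of Stmn1 was 0.79 (edgeR adjusted p = 0.0014). Since the marker sums of D1 and D2 libraries do not overlap, the part of these markers in the differences of the members and the cell type cannot be told apart here.

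Among female D2 libraries, numbers 2 and 6, which had the highest Stmn1 and Nefh, had summed D1-MSN markers of 30.3 and 29.9 CPM. Numbers 1, 3 and 5 had 12.6, 24.7 and 11.6 CPM, and the female D1 libraries 76.2 to 105.5 CPM. Cholinergic interneuron markers (Chat, Slc5a7, Slc18a3, Ecel1 and Lhx8) were at 3.68 to 10.8 CPM in female D2 and at 1.52 to 2.65 CPM in female D1, with the highest sum in D2 number 2. Their part in the result was not tested. The glutamatergic sums of D1 and D2 overlapped in nuclear libraries (18.6 to 69.6 CPM in D1 and 55.1 to 70.6 CPM in D2) and in whole cell libraries (12.4 to 52.5 CPM in D1 and 10.5 to 31.8 CPM in D2). Other sums were lower in every nuclear D1 than in every nuclear D2 library. They were those of cholinergic interneurons (8.75 to 36.6 against 55.1 to 88.4 CPM), GABA interneurons (43.4 to 141 against 194 to 304 CPM), endothelial cells (18.5 to 190 against 216 to 327 CPM) and microglia (42.7 to 170 against 173 to 219 CPM). Their part in the nuclear differences of the members was not tested. These sums include markers that did not pass the filter. By edgeR, 1 of 2 GABA interneuron markers tested was called higher in nuclear D1 and 0 lower (median log2 fold change 1.39). The 1 cholinergic marker tested (0.17) and the 1 microglia marker (-0.34) were not called, and 0 endothelial markers were tested. Estimated background was 0.585 to 22.1% of counts in nuclear D1 and 32.4 to 52.2% in nuclear D2. The sums are therefore not read as amounts of these cells.

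**Figure D2:**
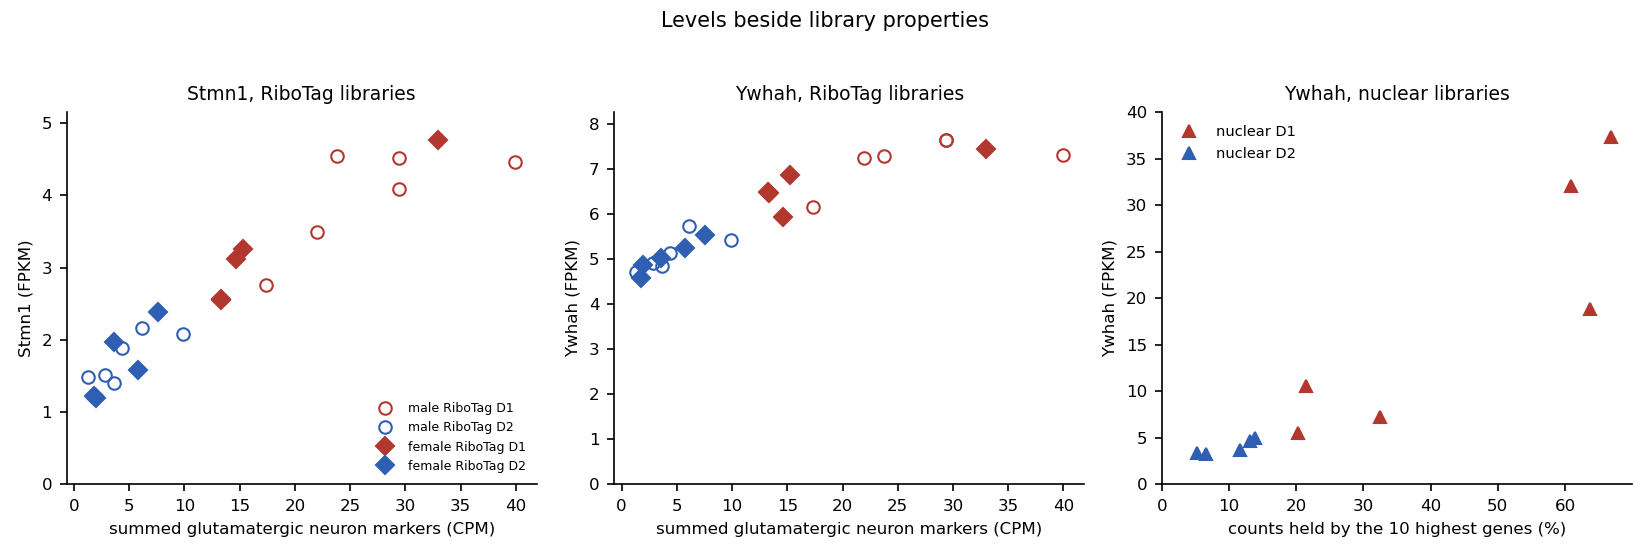
Stmn1 (left) and Ywhah (middle) in FPKM against the summed CPM of 3 glutamatergic neuron markers in the 22 RiboTag libraries (open circles, male; diamonds, female; red, D1; blue, D2), and Ywhah against the share of counts held by the 10 highest genes in the 11 nuclear libraries (right). The marker sums of D1 and D2 libraries do not overlap, and the nuclear D1 libraries with shares over 60% are those with the most Ywhah.

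Shares within a family do not depend on how libraries are scaled. Stmn1 made up 46.5% ± 5.09 (SD, n = 5) of the counts per kilobase of the 4 stathmin genes in female D1 and 32.3% ± 5.50 (SD, n = 5) in female D2. Nefl made up 74.99% ± 1.35 and 69.2% ± 2.29 of the neurofilament genes, and Ywhah 34.6% ± 1.22 and 29.0% ± 1.45 of the 14-3-3 genes. For each of the 3 shares every D1 library was above every D2 library (two-sided exact permutation p = 0.00794, the smallest that 5 against 5 libraries allow, and the same after Benjamini-Hochberg adjustment over 3). Summed exons in place of gene span gave smaller differences for Stmn1, of 9.37 against 14.2 percentage points, and for Ywhah, of 3.04 against 5.57. With the Nefl count taken off Nefm and the shorter RefSeq span of Nefm (chr14:68119545-68125004, GRCm38.p6), Nefl made up 48.9% ± 6.17 in female D1 and 40.3% ± 4.45 in female D2 (exact permutation, adjusted p = 0.0317).

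**Figure D3:**
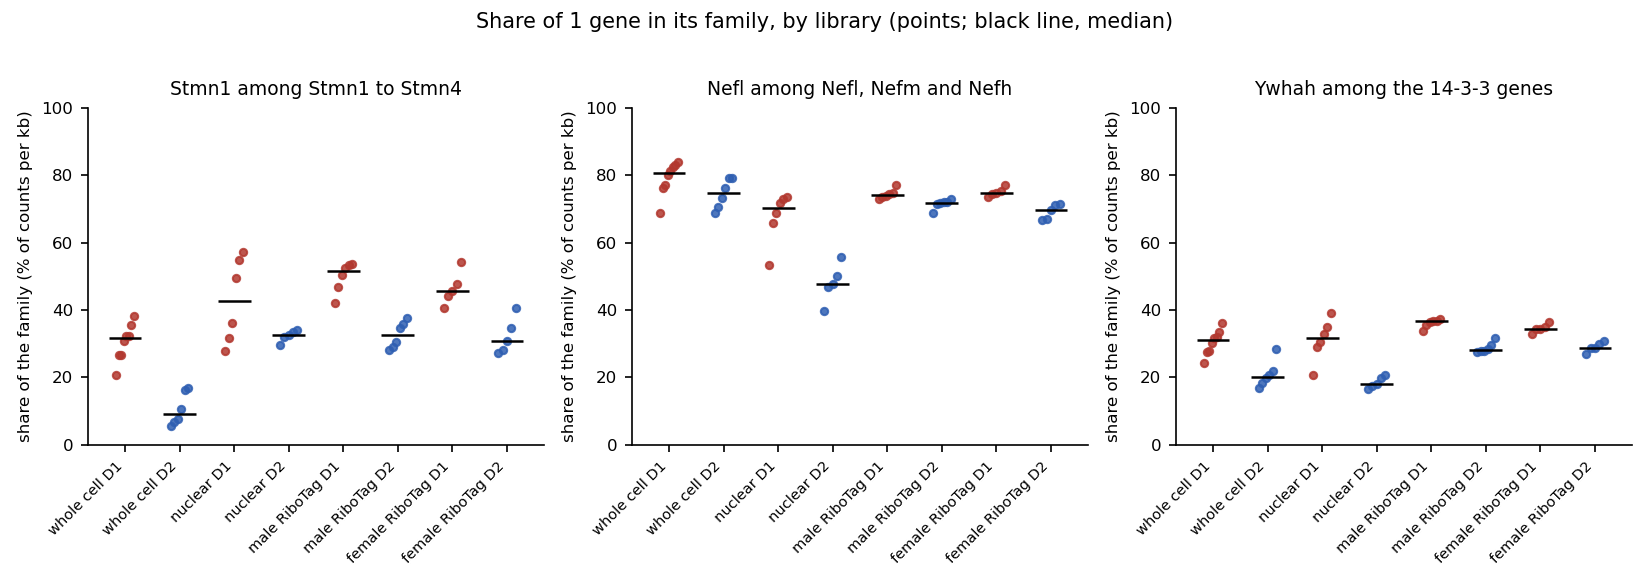
Share of Stmn1, Nefl and Ywhah in the counts per kilobase of their families (y axis, %) in each library of the 8 groups (points), with the median as a black line. In female RiboTag libraries all 3 shares are higher in every D1 than in every D2 library, and nuclear D2 libraries have the lowest mean Nefl share, 48.0%, with a range that overlaps nuclear D1.

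In male RiboTag libraries, which helped to choose the genes, 6 members were called higher in D1 where 1.62% of 6784 genes were, and 5 (Stmn1, Stmn2, Nefl, Ywhah and Lrpap1) had every D1 library above every D2 library, where 2.49% did. Nothing is read from these counts. Stmn1 ranged from 2.66 to 4.38 FPKM with a median of 4.12 in 6 D1 libraries and from 1.35 to 2.09 with a median of 1.64 in 6 D2 libraries, and its log2 fold change was 1.17 (SE 0.11). The values beside it were 0.95 (SE 0.11) for Stmn2, 0.64 (SE 0.09) for Nefl, 0.49 (SE 0.13) for Nefm, 0.49 (SE 0.06) for Ywhah and 0.53 (SE 0.05) for Lrpap1. Nefm fell to 0.33 (SE 0.17) once the Nefl count was taken off. Male D2 number 3 held 8.63 FPKM of Nefl where the other 5 D2 libraries had 5.18 to 5.78, and it was also the highest D2 library in Nefm and Nefh. Stmn3, Stmn4, Nefh and Ywhag lay between 0.05 and 0.28. Synm was the called gene of the intermediate filament list, at 1.28 (SE 0.13), and no gene of the other 4 lists was called.

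In whole cell libraries, which also helped to choose the genes, 3 members (Stmn1, Stmn2 and Lrpap1) were called higher in D1, where 0.703% of 16352 genes were, and nothing is read from this count. The chosen genes Nefl and Ywhah were not called in this fit. D1 and D2 libraries overlapped for Nefl, Ywhah and Lrpap1. Stmn1 ranged from 7.60 to 15.4 FPKM with a median of 12.1 in 8 D1 libraries and from 0.955 to 3.53 with a median of 1.99 in 6 D2 libraries, without overlap, as for 1.03% of genes, and its log2 fold change of 2.41 (SE 0.27) was the largest of the 10. Stmn2, at 1.40 (SE 0.33), also did not overlap, but the estimated background was at a median 56.3% (32.2 to 114%) of its count in D2 libraries and 22.6% in D1, and subtracting it gave 2.03. Lrpap1 was at 1.32 (SE 0.23), Nefl at 1.13 (SE 0.31), Ywhah at 1.10 (SE 0.28) and Nefm at 0.97 (SE 0.24), or 0.66 (SE 0.18) without the Nefl count. D1 numbers 2 and 8, whose background shares of 46.7 and 52.5% were the highest, had 20.9 and 13.8 FPKM of Nefl, while the other 6 D1 libraries had 22.6 to 68.7. The whole cell calls were 66.1% in the direction of D1, and with DESeq2's size factors 26.4% were. That scaling moved the median over all genes from 0.09 to -0.04 and lowered the members with it, so that Stmn1 was at 2.26, Lrpap1 at 1.16 and Nefh at -0.12 in place of 0.01. No gene of the 5 lists was called. Without D2 numbers 2 and 6, 49.7% of calls were in the direction of D1, and Stmn1 was at 2.17, Stmn2 at 1.78, Lrpap1 at 1.28, Ywhah at 1.06 and Nefl at 0.96.

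In nuclear libraries 5 members were called higher in D1 (Stmn1, Stmn3, Nefl, Ywhah and Lrpap1), where 9.06% of 9228 genes were, and nothing is read from this count because these libraries helped to choose the genes. Ywhah stood at 37.4, 7.25, 5.54, 10.6, 32.1 and 18.8 FPKM in D1 numbers 1 to 6 and at 3.27 to 5.00 FPKM in D2, without overlap, as for 5.72% of genes, with a log2 fold change of 2.23 (SE 0.45). Stmn1 was at 28.4 and 31.2 FPKM in D1 numbers 1 and 5, at 3.85 to 10.5 in the other 4, and at 3.76 to 5.53 in D2. Nefl showed the same libraries at the top, with 35.3, 26.0 and 15.7 FPKM in numbers 1, 5 and 6, and 4.68 to 6.87 in the other 3, beside 3.77 to 5.22 in D2. Without numbers 1, 5 and 6, whose 10 highest genes held over 60% of counts, Ywhah was at 1.09, Stmn1 at 0.66, Nefl at 0.40, Stmn3 at 0.49 and Lrpap1 at 0.49, and 1 member was called. Leaving out nuclear D2 numbers 1, 2, 3, 5 and 7 in turn left 1, 3, 2, 1 and 1 members called.

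Stmn2 did not follow the other members in nuclear libraries, at -0.20 (SE 0.16), and its sign turned without the FPKM filter, where its log2 fold change was 1.01 and the median over all genes moved from -0.03 to -0.26. Background came to a median of 43.4% of the Stmn2 count in nuclear D2 and 9.16% in nuclear D1 libraries. Of the lists, 2 of 5 other 14-3-3 genes (Ywhaz 1.74, Ywhae 1.54) were called higher in nuclear D1, where 9.06% of all genes were. So were 4 of 17 microtubule-associated and growth cone genes (among them Map1a 2.36 and Marcks 2.10) and 5 of 10 motors (among them Kif5a 1.83). Whether these list counts hold without the nuclear D1 libraries dominated by 10 genes was not tested. From the receptor list 1 of 6, Sorl1 (-0.40), was called lower, as 3.18% of all genes were, and from the intermediate filaments 0 of 2.

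**Figure D4:**
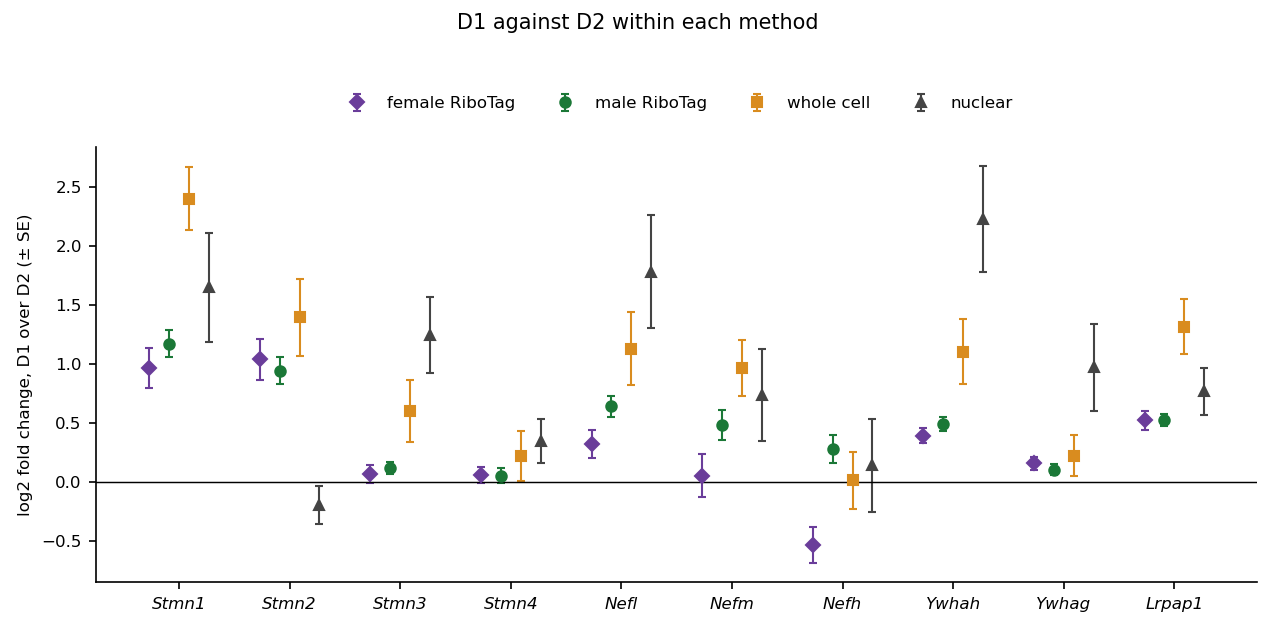
Log2 fold change of D1 over D2 (y axis, error bars SE) for each gene in female RiboTag, male RiboTag, whole cell and nuclear libraries. Stmn1, Ywhah and Lrpap1 are above 0 in all 4, and Stmn2 is below 0 in nuclear and Nefh in female RiboTag libraries. The male values helped to choose 4 of the genes.

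The methods themselves were compared by the mean over both cell types in 1 edgeR fit of the male groups over 29901 genes. On that scaling Nefl had median levels of 41.9 and 26.1 FPKM in RiboTag D1 and D2, 10.1 and 3.40 in whole cell D1 and D2, and 2.97 and 0.592 in nuclear D1 and D2. The ranges of whole cell D1 (2.01 to 18.8), whole cell D2 (2.48 to 10.7) and nuclear D1 (0.949 to 14.1) overlapped. Stmn1 had medians of 18.7 and 7.39 FPKM in RiboTag, 2.89 and 0.403 in whole cell and 2.56 and 0.765 in nuclear D1 and D2.

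Nuclear libraries held less than whole cell libraries of 6 members, where 12.4% of all genes were called lower. They were Nefl (log2 difference -1.85, SE 0.34, edgeR adjusted p = 6.98e-05), Stmn3 (-1.76), Lrpap1 (-1.38), Nefm (-0.91), Ywhah (-0.84) and Ywhag (-0.79), while the median over all genes was -0.13. Nefm was not tested between methods with the Nefl count taken off, so its difference cannot be told apart from that of Nefl. Stmn2 was higher in nuclear libraries (0.54, edgeR adjusted p = 0.0389), where 6.75% of genes were. That call was lost without nuclear D2 number 1, 2, 3 or 7 (edgeR adjusted p = 0.0559, 0.0606, 0.0551 and 0.0549), and the call of Ywhah without number 1, 3 or 5 (0.0845, 0.065 and 0.0912) or with DESeq2's size factors (-0.69, edgeR adjusted p = 0.0558). Stmn1 (0.56), Stmn4 (-0.07) and Nefh (0.07) did not pass. Over 9 alternative settings Stmn1 ranged from 0.50 to 0.925, and in 2 of them it was called higher in nuclear libraries. Within the stathmin family the nuclear share of Stmn1 was higher than the whole cell share in D2, at 32.3% ± 1.73 (SD, n = 5) against 10.5% ± 4.83 (SD, n = 6, two-sided exact permutation, p = 0.00433, adjusted over 18 tests p = 0.00932), and in D1, at 42.8% ± 12.6 against 30.4% ± 5.57, the difference did not pass (exact permutation, adjusted p = 0.0621). The nuclear share of Nefl among the neurofilaments was lower than the whole cell share in D1 (67.6% ± 7.60 against 79.1% ± 4.97) and in D2 (48.0% ± 5.79 against 74.6% ± 4.47, exact permutation, adjusted p = 0.00932 for each).

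RiboTag libraries were higher than whole cell libraries for all 10 members (log2 differences 1.49 to 3.21, where 23.7% of genes were called higher and 62.7% lower) and higher than nuclear libraries for all 10 (1.02 to 4.22, where 25.7% were higher and 63.5% lower). Nefm is counted in this paragraph with its Nefl fragments. The median over all genes was -1.91 and -2.19 in these comparisons, so a member at 1.49 lay well above it. The 4 genes chosen by value had to be detected in RiboTag libraries, and the genes tested as a whole did not. Nothing is therefore read from that distance. With only the 4625 genes that passed the FPKM filter of each method, the medians over all genes were -0.03 and 0.04. The members then lay 0.03 (Stmn2) to 1.86 (Stmn1) above whole cell libraries, and Stmn2, Stmn3 and Stmn4 were no longer called. Against nuclear libraries Stmn2 turned to -0.80 and Stmn4 to -0.07, while Nefl (2.50), Ywhah (2.09), Nefm (1.96), Ywhag (1.74), Stmn3 (1.49), Lrpap1 (1.38), Nefh (1.12) and Stmn1 (0.94) remained called higher. The share called among all 4625 genes was not at hand. Nothing is therefore read from how many members were called with this filter. The share of Stmn1 among stathmins was also higher in RiboTag than in whole cell libraries, by 19.4 percentage points in D1 and 22.1 in D2 (exact permutation, adjusted p = 0.00932 for each). The share of Ywhah was 5.66 points higher in D1 (exact permutation, adjusted p = 0.00932) and 7.87 higher in D2 (exact permutation, adjusted p = 0.0156).

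**Figure D5:**
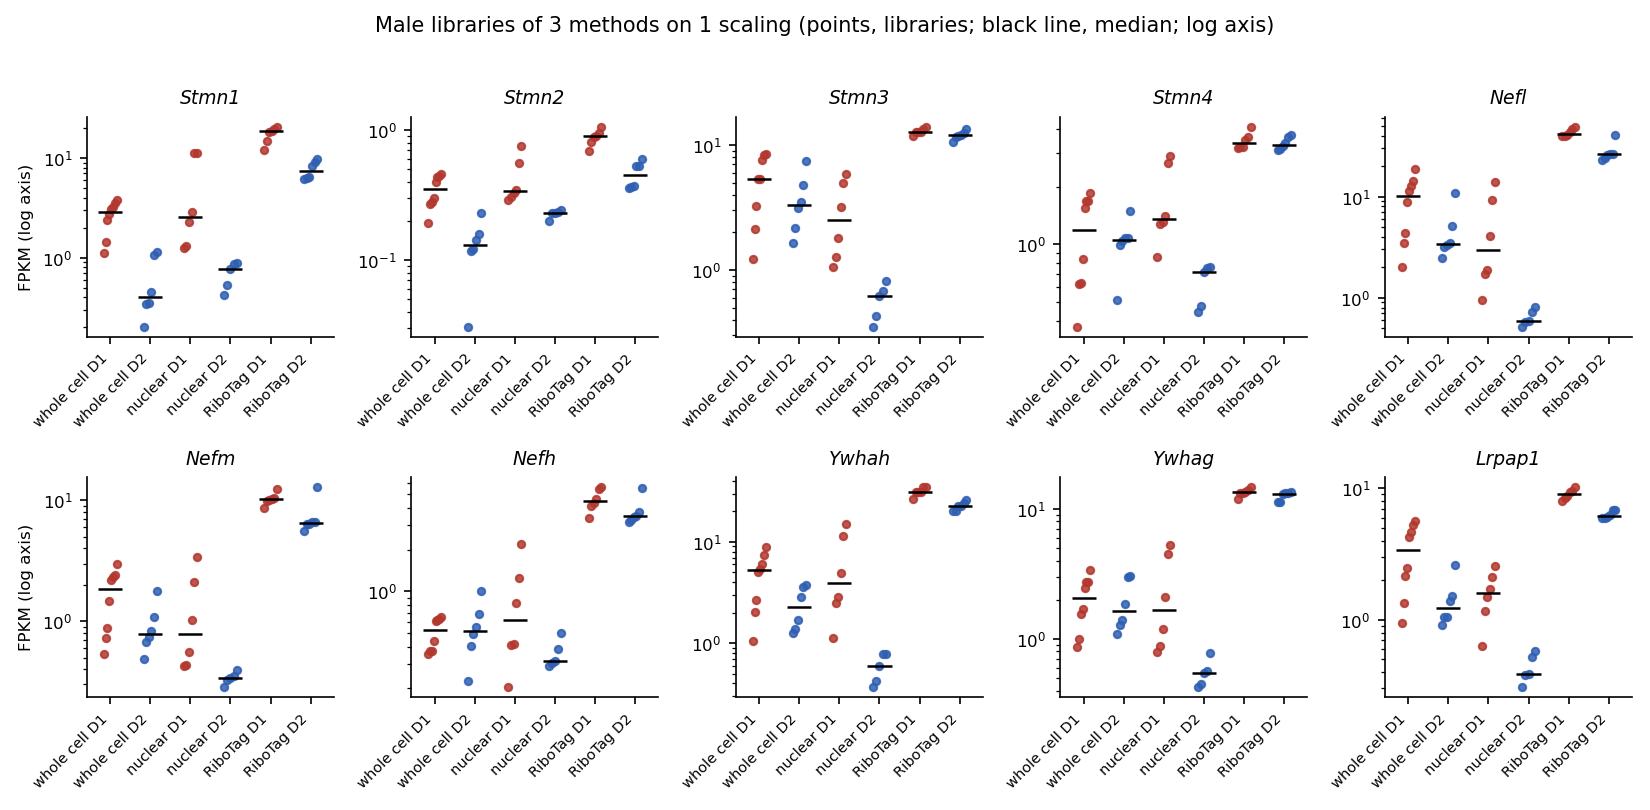
Level of each gene in FPKM (y axis, log scale) in male whole cell, nuclear and RiboTag libraries of D1- (red) and D2-MSNs (blue) on 1 scaling, with 1 point for each library and a black line at the median. RiboTag libraries have the highest medians for every gene on this scaling. Nuclear D1 libraries spread more than any other group for Stmn1, Nefl, Nefm, Nefh, Ywhah and Ywhag.

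Female and male RiboTag libraries were compared by the mean over both cell types, and 0 of 10 members was called by edgeR, where 0.0837% of 7172 genes were (610 at an unadjusted p under 0.05). The log2 difference of female from male was -0.27 (SE 0.11) for Stmn2, -0.19 (SE 0.12) for Stmn1, 0.20 (SE 0.08) for Nefl and 0.34 (SE 0.13) for Nefm, with edgeR adjusted p between 0.42 and 0.718. DESeq2 called none of the members either. The genes called were Xist, Tsix and Gm26992 on the X chromosome, higher in females, and Ddx3y, Rpph1 and Nr4a3, lower in females, and these were named after their values were seen.

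The genes whose deviations from the group means were most like those of a member were sought over the 22 RiboTag libraries among 7172 genes. For Stmn1 they were 6430548M08Rik (Pearson's r = 0.909), Olfm1 (0.903), which encodes a secreted neuronal glycoprotein, and Napb (0.894), an attachment protein of vesicle fusion. For Ywhah they were Snap25 (0.833), Nptx1 (0.825) and Tbr1 (0.812), of which Snap25 belongs to the machinery of vesicle release and Tbr1 is a transcription factor of glutamatergic cortical neurons. For Nefl they were Nefm (0.971), with which it shares fragments, Cend1 (0.853) and Hip1r (0.831). For Lrpap1 they were Sfxn3 (0.756), Gpr26 (0.725) and Tmem214 (0.701). The libraries share their scaling, and these values are descriptions. Among the 45 pairs of members the median r of the deviations was 0.811 in the 11 nuclear libraries, with all 45 above 0, 0.516 in the 14 whole cell libraries and 0.462 in the 22 RiboTag libraries.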

How the data were processed

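The deposited counts are whole-number fragment counts per gene. Per the labels and the study's methods, the authors aligned reads with HISAT2 2.0.5 to GRCm38 and counted whole gene bodies with featureCounts, without strand and for every overlapping gene. Of 49 columns, the second column of whole cell D1 number 1 and the second lane of D2 number 3 were summed with the first, which left 47 libraries. The study's own numbers of whole cell D1 and D2 samples equal those of the columns before summing. It took each sample from a different mouse, so the summed columns may be separate animals. Results with them kept apart are given below. The labels list 8 whole cell samples per cell type, and D2 numbers 7 and 8 were not analysed here. For 7 columns (nuclear D2 numbers 5 and 7, female D1 4, 5 and 6, female D2 5 and 6) the number matched no label and gave only the group.

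Counts were tested with edgeR 4.0.16 in R 4.3.3 (TMM, quasi-likelihood test, Benjamini-Hochberg over all genes tested), with DESeq2 1.42.0 as an alternative. Genes needed more than 1 CPM in at least 2 libraries. RiboTag genes also had to reach an FPKM of 0.1 in 2 libraries, and whole cell and nuclear genes one of 1 in any library without passing 50000. Comparisons of methods used the first filter alone. Calls needed an adjusted p of at most 0.05 and an absolute log2 fold change above 0.38. Within a method they also needed a mean above the 25th percentile, and in nuclear libraries an SE below the 75th. Gene spans were taken from GENCODE for 52489 of 52636 genes. Shares were compared with SciPy 1.17.1 by exact permutation. The scripts were tested on simulated data. A floor of 3 counts equals 0.0436 to 0.811 CPM, for counting error only. The 10 genes and all gene lists were chosen with earlier results of these data known. Other genes are named from the fixed lists, or as the 3 most alike to each of the 4 genes chosen by value. Alternatives covered scaling, filters, gene length, background, the Nefl and Nefm overlap, lanes, libraries left out and a replicate block. The overlap correction and the removal of libraries dominated by 10 genes were chosen after seeing the data. One listed marker is not reported here and was kept out of its summed level.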

Additional observations from a re-analysis of the deposited data

Results flagged for a closer look

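Within each group of 4 to 10 libraries, the highest or lowest value of each member was compared with the rest by Dixon's criterion. In 9 of the 104 groups tested a library stood apart, where chance gives about 1 in 20.

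In male RiboTag D2, number 3 was highest for 3 neurofilament genes. It had 8.635 FPKM of Nefl (next 5.784), 2.716 of Nefm (next 1.507) and 1.186 of Nefh (next 0.8185). The share of Nefl in its family was lowest in the same library, at 68.88% (next 71.6%). Nefm and Nefl share fragments, so these values are not independent.

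In male RiboTag D1, number 1 was lowest for Stmn3 at 2.614 FPKM (next 2.856), Ywhag at 2.649 (next 2.977) and Ywhah at 5.927 (next 6.989). In female RiboTag D1, number 4 was highest for Stmn2 at 0.2257 FPKM (next 0.1768). In whole cell D2, number 5 was highest for Nefl at 33.14 FPKM (next 16.35). What sets these libraries apart was not tested.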

How the results depend on the processing

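In the female comparison 154 of 170 member values kept their side of the threshold. Among these, uncalled Nefm turned negative without D1 number 5 (-0.10), D2 number 1 (-0.05) or D2 number 5 (-0.06) and with the Nefl count taken off (-0.16), and uncalled Stmn4 with the replicate block (-0.0079). The 4 members higher in D1 became 3 to 5 when single libraries were left out, and the 1 lower became 0 to 1, and 0 with DESeq2, without the FPKM filter and with summed exons. The 83 genes higher became 126 without the FPKM filter, 126 with summed exons and 152 without the fold threshold, and the 51 lower became 118 without it. Male RiboTag genes went from 110 higher and 64 lower to 221 and 112 without the FPKM filter.

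In whole cell libraries, 3 members, 115 genes higher and 59 lower became 6, 260 and 447 with DESeq2, and 1, 15 and 19 without the FPKM filter. They became 6, 221 and 108 with the second column as its own library, and 6, 373 and 138 with lanes kept apart. DESeq2's size factors gave 52 higher and 145 lower, and background subtraction 62 higher. In nuclear libraries 5 members, 836 genes higher and 293 lower became 9, 5965 and 1325 without the FPKM filter. They became 1, 509 and 153 without the D1 libraries over 60% in 10 genes. Leaving out single D2 libraries gave 1 to 3 members, 302 to 523 higher and 68 to 168 lower. DESeq2 gave 479 lower and background subtraction 645. The 1 member higher in nuclear than whole cell libraries became 2 with DESeq2, 2 with the FPKM filter of each method, and 0 to 1 with a library left out. That filter turned Stmn2 to -0.80 and Stmn4 to -0.0707 in RiboTag minus nuclear, with 1 member lower. Female minus male gave 3 genes each way, and 0 higher with DESeq2 (5 lower) or without the FPKM filter (6 lower), and 0 to 4 higher and 1 to 7 lower with a library left out.

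RiboTag minus whole cell Nefl shares of -4.68 points in D1 and -3.05 in D2 did not pass. They passed with summed exons (-6.11 and -4.88), background subtraction (-6.43 and -5.00) and the Nefl count taken off Nefm (-13.6 and -11.0). The D1 RiboTag minus nuclear share no longer passed with that last change (7.42, exact permutation, adjusted p = 0.0974). The cause was not tested for these changes.

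Same-numbered libraries share only a number: their deviations correlated at -0.05 and -0.02 in females, -0.222 to 0.106 in whole cell, -0.285 to 0.212 in nuclear and -0.025 to 0.153 in male RiboTag pairs. With the replicate block, female calls were 2 members and 38 genes higher and 0 members and 32 genes lower, over 2 pairs with the other libraries dropped. Whole cell calls were 5 members, 37 genes higher and 26 lower, nuclear calls 0 members, 0 higher and 0 lower over 3 pairs, and female minus male 0 higher.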
